A study of Drosophila melanogaster with 4 samples.

Results

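The window of the X chromosome that holds the proneural genes achaete (ac), scute (sc), lethal of scute (l(1)sc) and asense (ase) and the neural homeobox gene ventral nervous system defective (vnd) was examined for dRING binding. It was taken by position alone, as every deposited interval on X that overlapped 240000 to 510000 in FlyBase release 5. This gave 15 of the 7386 regions in the list of the whole series, 15 of the 3458 clusters of ChIP replicate 1 and 8 of the 3048 clusters of ChIP replicate 2 on the 6 main chromosome arms. A region here is an interval of the series list, and a cluster is an interval called in a single library.

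All libraries came from wild-type Oregon-R embryos (the strain Oregon-R-modENCODE) at 14 to 16 h of development. There were 2 ChIP libraries made with the dRING antibody Q3200 and 2 input libraries of genomic DNA, with no mutant and no treatment. Chromatin was taken from whole embryos, so more cells carrying dRING at a site and more dRING per cell cannot be told apart. Separate embryo collections for the replicates are not mentioned in the labels, and differences between the libraries could be purely technical. The files hold no read counts, and the depth behind each interval is unknown.

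dRING, also called Sex combs extra, is the RING-finger subunit of Polycomb repressive complex 1, which ubiquitinates histone H2A and holds developmental genes silent outside the cells that use them. Polycomb complexes in the fly are known both from narrow sites, where they are recruited to DNA, and from wide domains that spread over silenced genes. The 4 genes of the achaete-scute complex encode basic helix-loop-helix activators that pair with Daughterless and bind E-box sequences. Of these, ac, sc and l(1)sc give ectodermal cells the competence to become neural precursors. The genes ac and sc act in proneural clusters of the sensory bristles and of the embryonic neuroectoderm, and sc is also an X-linked signal of sex determination. The gene l(1)sc acts chiefly in the embryonic central nervous system, and ase is expressed in the neural precursors themselves, including neuroblasts. The gene vnd encodes an NK-2 class homeodomain protein that specifies the ventral column of the neuroectoderm.

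Along X the 5 genes run in the order ac, sc, l(1)sc, ase and vnd, from the left of the window to the right (RefSeq table, release 6). In that table only 1 protein-coding gene, Pgcl, stands between any neighbours of the 4 proneural genes, and it lies between l(1)sc and ase. Between ase and vnd the table has 21 genes, 14 of them protein-coding, among them elav, which encodes a neuronal RNA-binding protein, Appl, the fly relative of the amyloid precursor protein, and svr, which encodes a carboxypeptidase. The files are in release 5, gene positions of that release were not used here, and coordinates were not converted between releases. Intervals are therefore described by position, and none is assigned to a gene.

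The window fell into a long left part with no dRING interval and a right part with many. No list held an interval from 238074 to 385760, a stretch of 147.7 kb of which 145.8 kb lay in the window and made up 54.0% of it. All 38 intervals of the 3 lists stood in the remaining 124.2 kb at the right. In that right part the series regions covered 43.4% of the bases, replicate 1 clusters 34.0% and replicate 2 clusters 15.6%. The window thus joined an interval-free stretch, on the side of ac in the gene order, to the densest dRING cover it held, at its right edge on the side of vnd. Whether each of the 4 proneural genes lies within the free stretch was not determined here, and the label of the window says no more than that the genes are in it.

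**Figure D1:**
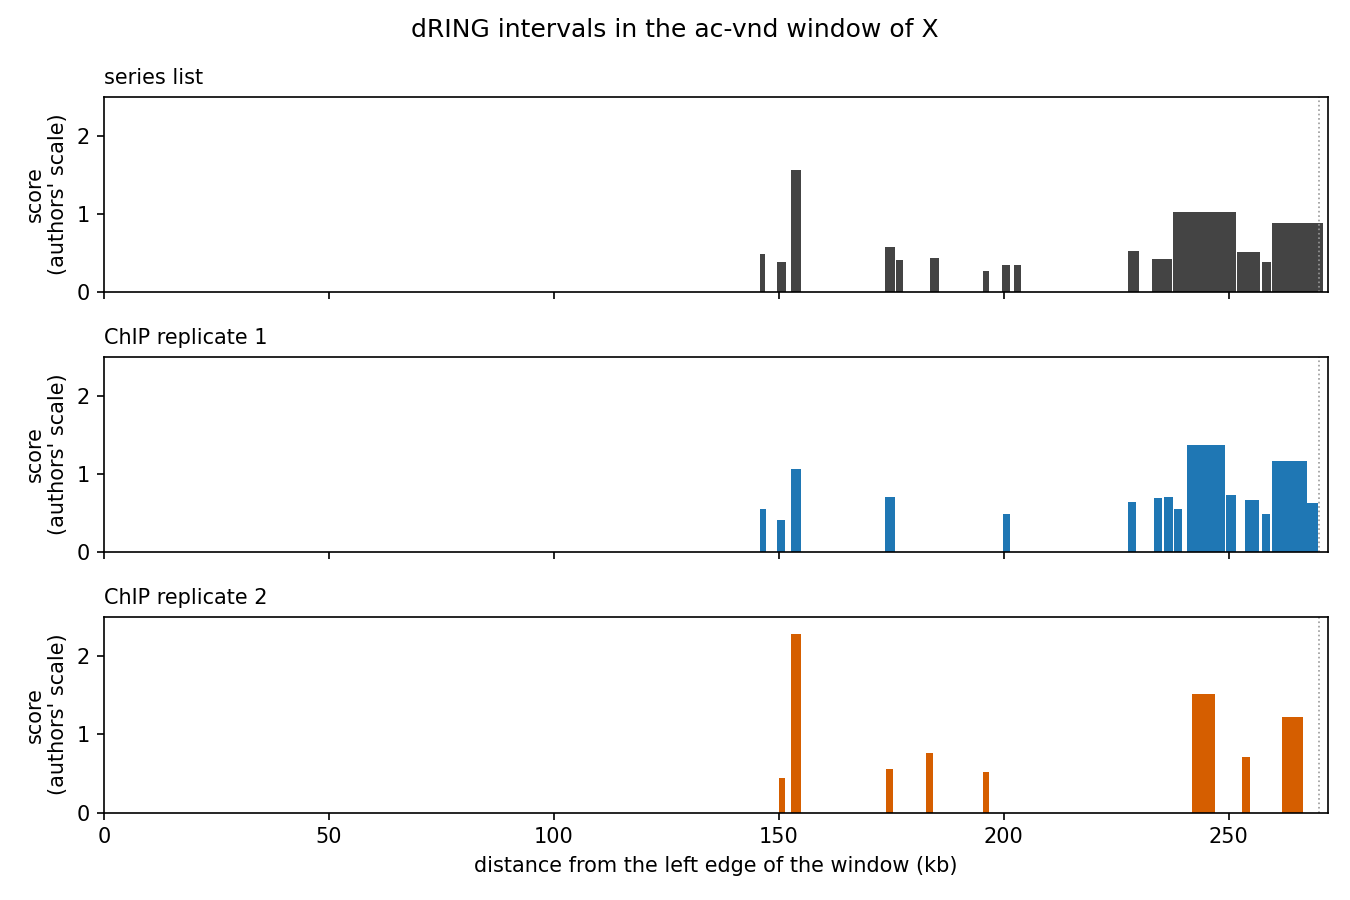
Intervals of the series list and of the ChIP replicates in the window, with the distance from its left edge (position 240000) in kb on the x axis and the authors' score on the y axis. Each bar spans 1 interval, and the dotted line marks the right edge of the window. No interval stands in the first 145.8 kb. At least 1 lower bar follows in each list, then a narrow bar of 1.56 in the series list, 1.07 in replicate 1 and 2.28 in replicate 2. The widest intervals of each list stand at the right end.

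The free stretch was long by the standard of each list. In the series list, where it measured 147.8 kb, it ranked 43 of 7380 spacings between consecutive regions on the arms, and 6 of 1622 on X. The median spacing of series regions was 5.29 kb on the arms and 4.45 kb on X. In replicate 1 the stretch measured 147.7 kb and ranked 127 of 3452 spacings on the arms and 25 of 743 on X. In replicate 2 it measured 152.0 kb and ranked 144 of 3042 on the arms and 24 of 701 on X. Median spacings on the arms were 11.6 kb in replicate 1 and 15.8 kb in replicate 2. Absence from a list says only that nothing passed the authors' threshold there, and with no read counts the smallest enrichment that could have been seen is unknown. The stretch was chosen for description after the lists had been seen. On its left it was bounded by a region found in both libraries, from 235913 to 238073, which ended 1.93 kb outside the window and had a series score of 1.25, a replicate 1 score of 1.11 and a replicate 2 score of 1.44.

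In the right part the 15 regions formed 3 stretches, each made of neighbours with gaps under 10 kb. The first, from 385897 to 395059, held 3 regions in 9.16 kb. The second, from 413623 to 443791, held 6 regions in 30.2 kb, of which 34.9% was covered. The third, from 467713 to 510907, held 6 regions in 43.2 kb, of which 90.0% was covered, and it supplied 70.4% of the bases that the series list covered in the window. Gaps of 18.6 kb and 23.9 kb parted the stretches. From left to right, the series list thus went from a short group with a single high score, through scattered sites with scores of 0.27 to 0.58, to a nearly filled stretch, which replicate 2 filled far less.

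The highest score of the window in the series list and in replicate 2 belonged to the region from 392639 to 395059, in the first stretch. In replicate 1 its cluster came after those of 2 wide regions in the third stretch, which scored 1.37 and 1.17. It was 2.42 kb long with a series score of 1.56, a replicate 1 cluster score of 1.07 and a replicate 2 cluster score of 2.28 (mean 1.67 ± 0.85, SD, n = 2). Its score was above 96.0% of all region scores on the arms, and it ranked 102 of the 498 X regions seen in both replicates. It was the sharpest placed as well: its cluster ran from 392778 to 395030 in replicate 1 and from 392750 to 395012 in replicate 2, so that the starts were 28 bp apart and the ends 18 bp apart. The scores of the 2 libraries nevertheless differed by 1.20, more than at any other shared place in the window. Within their own lists, the replicate 1 score was above 82.9% of the arm scores and the replicate 2 score above 93.9%. No scale is stated for the scores, so their mean and SD hold only if the lists share a scale.

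The neighbours of this site in the first stretch were weak. The region from 389543 to 391530 had a series score of 0.39, with 0.41 in replicate 1 and 0.44 in replicate 2, and it was the lowest scoring of the 6 regions seen in both. These cluster scores were above only 9.57% and 7.35% of the arm scores in their lists. The region from 385897 to 386965, which is 1069 bp long and the first after the free stretch, was overlapped by a cluster in replicate 1 alone, with a score of 0.55.

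In the second stretch 1 of the 6 regions was seen in both replicates. It ran from 413623 to 415878 with a series score of 0.58, a replicate 1 score of 0.71 and a replicate 2 score of 0.56. It was the only shared place in the window where the replicate 1 score was the higher as listed. Within their own lists, these cluster scores were above 65.2% and 24.3% of the arm scores. The region from 439731 to 441490 was overlapped in replicate 1 alone, with a cluster score of 0.49. The regions from 423627 to 425705 and from 435329 to 436745 were overlapped in replicate 2 alone, with cluster scores of 0.76 and 0.52. The remaining pair, from 416071 to 417677 and from 442387 to 443791, met no cluster of either library. The 5 regions not seen in both had series scores of 0.27 to 0.43.

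The third stretch held the wide regions of the window. The longest, from 477727 to 491743, spanned 14.0 kb with a series score of 1.03, and the region from 499667 to 510907 spanned 11.2 kb with 0.89. Between them lay the region from 491845 to 496954, 5.11 kb long with a score of 0.51, and that from 497537 to 499334, 1.80 kb long with 0.39. To the left stood the regions from 473090 to 477496 (series score 0.43) and from 467713 to 470017 (series score 0.53). From 473090 on, consecutive regions were only 101 to 582 bp apart, and the lists cannot show whether these 5 regions are parts of a continuous domain. The last region crossed the right edge of the window, and the next region of the series list began 1.34 kb beyond it, from 511337 to 515216, with a score of 0.43 and a cluster in replicate 2 alone.

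Both libraries put their highest cluster of this stretch in the same wide region, and both had their next highest in the other wide region. In the region from 477727 to 491743, the highest replicate 1 cluster ran from 480832 to 489267 and scored 1.37, and the highest replicate 2 cluster ran from 481784 to 486881 and scored 1.52 (mean 1.44 ± 0.11, SD, n = 2). In the region from 499667 to 510907, the highest replicate 1 cluster ran from 499715 to 507403 and scored 1.17, and the highest replicate 2 cluster ran from 501985 to 506486 and scored 1.22 (mean 1.19 ± 0.04, SD, n = 2). The replicate scores at each place differed by 0.15 and 0.05, less than the difference of 1.20 at the narrow site. These differences, means and SDs hold only if the lists share a scale, which is not stated. Within their own lists, the first pair of scores was above 90.1% (replicate 1) and 84.3% (replicate 2) of the arm scores. The second pair was above 85.4% and 77.5%. In replicate 1 the clusters of the wide regions scored above that of the narrow site, and in replicate 2 below it. The order of the strongest places thus differed between the libraries.

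The libraries differed in how much of the third stretch they filled. Replicate 1 covered 76.3% of it in 10 clusters, and replicate 2 covered 25.9% in 3. The region from 477727 to 491743 was covered to 88.5% in replicate 1 and 36.4% in replicate 2. The region from 499667 to 510907 was covered to 88.5% and 40.0%, respectively. The same direction held over all 106 arm regions of 10 kb or longer, which include these 2 and were covered to 91.3% ± 9.39 by replicate 1 and 56.4% ± 16.4 by replicate 2 (SD over regions). The regions from 473090 to 477496 and from 467713 to 470017 had clusters in replicate 1 alone, with highest scores of 0.71 and 0.65, as had the region from 497537 to 499334, with 0.50. Outside the third stretch the libraries covered more nearly equal lengths: 5.46 kb and 3.63 kb in the first stretch, and 3.74 kb and 4.58 kb in the second.

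**Figure D2:**
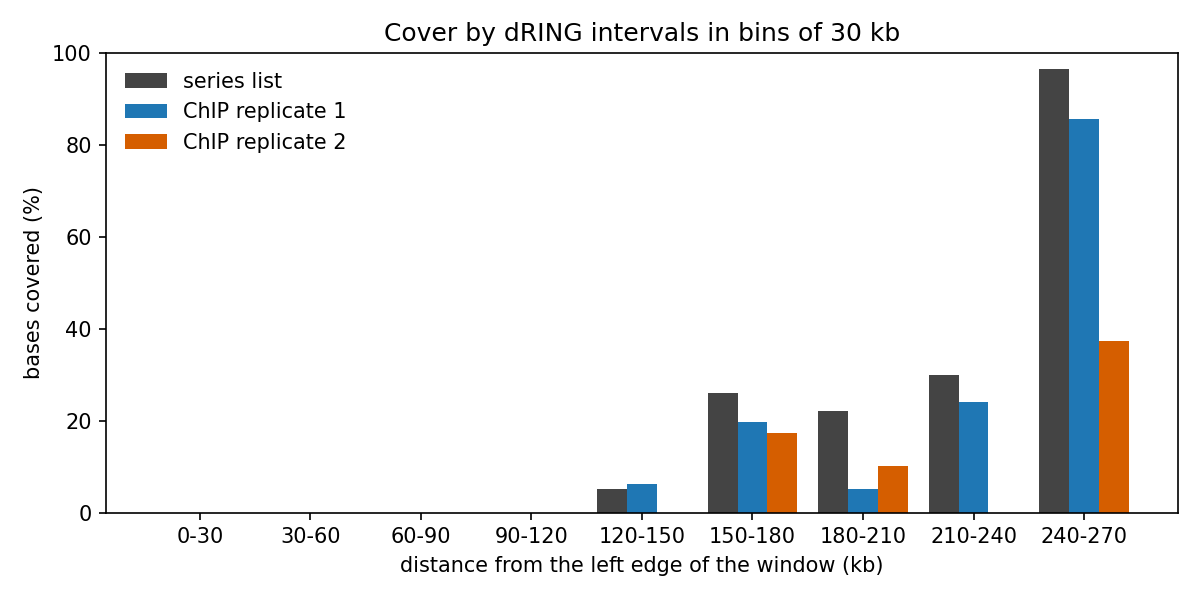
Share of bases covered by each list in 9 consecutive bins of 30 kb, with the distance from the left edge of the window in kb on the x axis and the percent of bases covered on the y axis. The first 4 bins are empty in each list, and the last is covered to 96.6% by series regions, 85.7% by replicate 1 clusters and 37.2% by replicate 2 clusters.

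Of the 15 series regions, 6 were seen in both replicates (40%, exact 95% binomial interval 16.3 to 67.7%), where the share was 28.4% on all arms and 30.7% on X. A region was called seen in both when a cluster of each library overlapped it by at least 1 bp. The interval includes both background shares, but it is wide and neighbouring regions are not independent, so it cannot show whether the window differed. Replicate 1 alone marked 5 of the others (33.3%, against 15.3% on all arms and 12.8% on X). Replicate 2 alone marked 2 (13.3%, against 8.69% and 9.06%). The remaining 2 regions met no cluster (13.3%), where such regions made up 47.6% of those on all arms and 47.5% of those on X. No test was made of these shares. The 6 shared regions held 67.5% of the listed bases, against 50.0% on all arms and 50.1% on X. Their median series score was 0.73, against 0.68 for such regions on all arms and 0.86 on X. The 9 other regions had series scores of 0.27 to 0.53, overlapping the shared ones, whose lowest scores were 0.39 and 0.51.

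Seen from the libraries, 6 of the 15 replicate 1 clusters overlapped a replicate 2 cluster (40%, 16.3 to 67.7%), against 63.3% on all arms and 69.1% on X. This interval includes the share on the arms and ends below that on X. Of the 8 replicate 2 clusters, 6 overlapped a replicate 1 cluster (75%, 34.9 to 96.8%), against 76.8% on all arms and 76.5% on X. Neighbouring clusters are not independent, and 7 of the 9 unshared replicate 1 clusters stood in the third stretch, where replicate 2 had few and shorter clusters. The exact intervals cover counting error only, and no test was made, so they cannot show whether the window differed.

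The 6 pairs of overlapping clusters were compared in score, length and placement. Replicate 2 had the higher score in 5 of the 6 pairs (83.3%, exact interval 35.9 to 99.6%), where the share was 76.1% on all arms and 80.2% on X, and the differences in score ran from -0.15 to 1.20. Replicate 2 scores also ran higher on the arms, with a median of 0.71 against 0.60 in replicate 1. By the share of arm scores below it in its own list, the direction was reversed. The replicate 1 cluster then stood higher in every pair except that of the region from 392639 to 395059 (82.9% against 93.9%). The replicate 1 cluster was the longer in 5 of 6 (83.3%, 35.9 to 99.6%), against 53.8% on all arms and 51.9% on X. In 4 of the 6 pairs (66.7%, 22.3 to 95.7%) the replicate 2 cluster lay wholly inside the replicate 1 cluster, against 33.2% on all arms and 30% on X. Each of these intervals includes the shares on the arms and on X. With 6 pairs the intervals are wide and neighbouring pairs are not independent, so they cannot show whether the pairs differed from the rest. In the wide regions replicate 1 clusters of 8436 bp and 7689 bp met replicate 2 clusters of 5098 bp and 4502 bp. The pair in the region from 491845 to 496954 was the least well matched, since its clusters shared 962 bp, which was 31.5% of the replicate 1 cluster and 61.4% of the replicate 2 cluster. Each list carries its own scores, whose scale is not stated, so the scores of the 2 libraries are set side by side here without a claim about the amount of dRING.

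**Figure D3:**
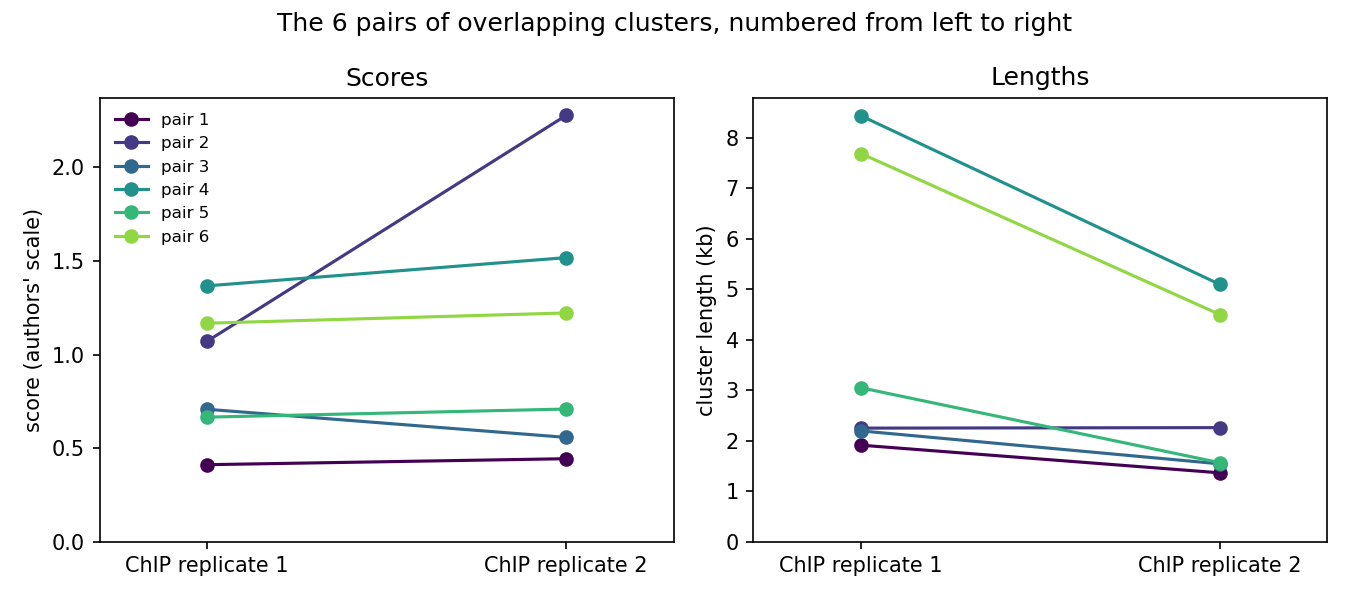
Scores (left, on the authors' scale) and lengths in kb (right) of the 6 pairs of overlapping clusters, each line joining the replicate 1 cluster to its replicate 2 partner, numbered from left to right along the window. Scores of pair 2 rise from 1.07 to 2.28 and those of pair 3 fall from 0.71 to 0.56, and lengths are shorter in replicate 2 in each pair except pair 2.

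Set against the genome, the window was covered more than the arms as a whole in each list, while the density of intervals depended on the list. The series list held 55.6 regions per Mb in the window, 61.4 on the arms and 72.4 on X. Replicate 1 held 55.6 clusters per Mb in the window, 28.7 on the arms and 33.2 on X. Replicate 2 held 29.6, 25.3 and 31.3, respectively. The window was thus less dense than the arms in the series list and denser in both libraries, and it was below X in the series list and in replicate 2. The replicate 1 density depends on narrow breaks, since merging clusters less than 1 kb apart left 9 in the window in place of 15. The density of merged clusters on the arms was not computed. Series regions covered 20.0% of the window, 13.6% of the arms and 15.6% of X. Replicate 1 clusters covered 15.7% of the window, against 7.57% of the arms and 8.36% of X. Replicate 2 clusters covered 7.18%, against 5.94% and 7.28%, so that in replicate 2 the window lay close to the rest of X. Of the 15 regions, 2 were 10 kb or longer (13.3%, exact interval 1.66 to 40.5%), against 1.44% on all arms and 0.924% on X. Neighbouring regions are not independent, the window was chosen with earlier results known, and no test was made. The interval therefore cannot show whether the window differed. Both long regions stood in a run of regions only 101 to 582 bp apart, so their count also depends on narrow breaks. Neither library had a cluster of 10 kb or longer in the window, 0 of 15 in replicate 1 and 0 of 8 in replicate 2. On all arms 2.11% and 0.295% of the clusters were that long. Within the window, intervals of 10 kb or longer were thus in the series list only. In replicate 1 the clusters from 480832 to 489267 and from 489371 to 491766 were less than 1 kb apart. So were those from 499715 to 507403 and from 507553 to 509816. The lack of long replicate 1 clusters in the window thus depends on these narrow breaks. The 2 long regions ranked 7 and 11 by length among the 498 X regions seen in both replicates, and 197 and 238 by score.

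When the arms were divided into 444 consecutive stretches of the length of the window, 82 had at least as much series cover, 47 at least as much replicate 1 cover and 127 at least as much replicate 2 cover. The median stretch was covered to 10.9% in the series list, 5.18% in replicate 1 and 4.74% in replicate 2. The window thus stood above the median of each distribution without reaching its end, which lay at 70.3%, 57.5% and 35.6%. It lay above the upper quartile in the series list (17.4%) and in replicate 1 (9.41%), and below it in replicate 2 (7.95%). On X, 23, 11 and 37 of 83 stretches reached the cover of the window. These ranks are a description and no test.

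**Figure D4:**
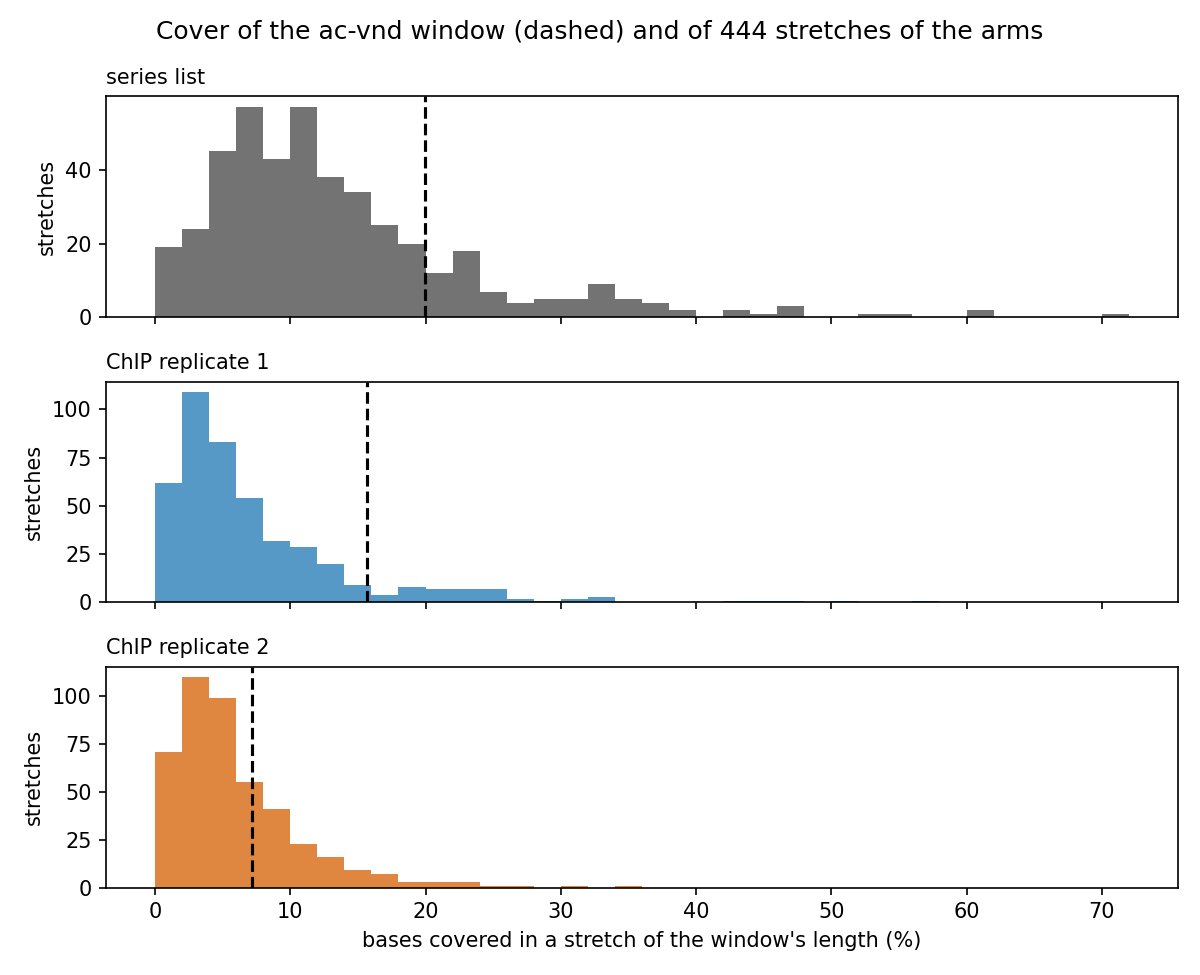
Number of stretches of the arms (y axis) by the percent of their bases covered (x axis, bins of 2 percentage points) in each list, with the window as a dashed line. The window lies at 20.0% in the series list, 15.7% in replicate 1 and 7.18% in replicate 2, above the medians of 10.9%, 5.18% and 4.74%.

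Scores in the window were not high as a group. The median score was 0.43 for the series regions of the window, 0.42 on the arms and 0.49 on X. For clusters it was 0.67 in replicate 1, against 0.60 on the arms and 0.71 on X, and 0.74 in replicate 2, against 0.71 and 0.83. The highest scores of the window, 1.56, 1.37 and 2.28 in the series list, replicate 1 and replicate 2, lay below the highest on X, which were 3.04, 2.85 and 3.62.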

How the data were processed

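Enriched intervals from 2 ChIP libraries, made with 2 matched inputs per the labels, were used as deposited. Per the submitters' processing notes, reads were mapped with Bowtie 0.12.7, and per the file headers the build is FlyBase release 5. Each interval carries a score made by the authors, with no stated scale. The caller, its threshold and the combining of replicates are likewise not given in the sources used here. Per the labels' protocols, embryos were fixed with 1.8% formaldehyde and chromatin met the antibody for 15 h. The shortest interval was 1301 bp in both replicate lists and 1001 bp in the series list, so regions under the former length could be matched only by longer clusters.

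Lists were read with Python 3.11.15 and numpy 2.4.6, exact intervals came from scipy 1.17.1 and plots from matplotlib 3.10.9. Overlap needed 1 bp. Positions are 1-based. Overlap, cover and joining equalled direct counts on all 20 simulated lists. The window, its genes and the measures were chosen with earlier results of these data known. All regions seen in both replicates were named, and so were the others, the latter and the free stretch after their values were seen. Alternatives were another overlap minimum, a score minimum, merging, other window edges and each replicate alone. The 5 gene symbols matched the RefSeq table, used for gene order only. Planned promoter and protein descriptions were not made, as no sequences were used here.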

Additional observations from a re-analysis of the deposited data

How the results depend on the processing

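Of 34 recomputed values, 32 stayed within the exact interval (shares), within 1.5 times (counts) or within the spread between replicates (cover and scores). That spread was 6.00 percentage points for cover, set against a replicate 2 cover of 7.18%, and 0.07 for scores. The spread of scores was taken across lists with no stated common scale. The limits for shares and cover were wide, so staying within them says little about stability. Requiring only 1 library gave 8 to 11 regions in place of the 6 seen in both, the higher count with replicate 1. A score minimum, merging and narrower edges each gave 4, wider edges gave 8, and the other overlap minimum gave 6. Weighting the median score of the shared regions by length gave 0.89 in place of 0.73, since the wide regions then count for more. The share of replicate 1 clusters that were shared ran from 36.4 to 55.6%, highest when clusters less than 1 kb apart were merged, and that of replicate 2 from 66.7 to 80%. Cover of the window ran from 15.2 to 20.9% in the series list, 11.2 to 16.4% in replicate 1 and 5.54 to 7.99% in replicate 2, lowest with narrower edges or a score minimum. Stretches shifted along each arm so that they straddled the earlier ones, an alternative chosen after seeing the data, gave 87, 44 and 137 of 439 at or above the window. No paired analysis was possible because the lists give no values for the inputs and no test was made over 2 ChIP libraries. Unknown depth limits what the absence of an interval shows.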
